A study of Mus musculus with 9 samples.

Results

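The wild type mouse embryonic stem (ES) cell line of this series was followed over 3 time points, on 1 array each. The 3 arrays were taken by their titles, which name wild type ES cells as undifferentiated (day 0), as embryoid bodies of day 3 and as embryoid bodies of day 7, and they are 3 of the 9 arrays in the series. The other 6 arrays hold a PKM1 knock-in and a PKM2 knock-in ES line on the same days and are used here for comparison only. Pkm encodes pyruvate kinase M, the last enzyme of glycolysis, and PKM1 and PKM2 are its splice forms. The labels give the genotype as wild type with no further allele, transgene or agent. Undifferentiated cells were grown in medium with LIF, and embryoid bodies floated in medium without LIF. The sources used here do not give the strain, the passage or whether feeders were used, and each genotype is 1 line.

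Mouse ES cells represent the early epiblast and are held in self-renewal by LIF, a cytokine that acts through STAT3 on factors such as Klf4. When LIF is removed and the cells are allowed to aggregate, they pass through a formative, primed state and then give rise to precursors of the germ layers and, at the outer surface of the aggregate, to extraembryonic endoderm. Embryoid bodies are therefore mixtures of cell types, and in bulk RNA fewer cells of a type and less RNA per cell cannot be told apart.

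There was 1 array per day and no replicate, so no difference below has a replicate check, a standard error or a p-value. Levels are log2 of the scaled processed signal, and a gene is said to have risen or fallen only where it differed at least 2-fold and was well above background (the scanner software's own call) on the brighter array. Where the dimmer array was not well above background, that array was counted at its lowest well above background signal or at the probe's own signal, whichever was higher, and the fold is given as "at least". On the 3 arrays 59.5 to 61.6 percent of the non-control spots were well above background and 0 were saturated, and 14541 to 14993 named genes had a probe above background. Probes printed several times on an array had a median SD of 0.07 to 0.09 (log2) between their spots, which covers spot error only. Over the 15938 genes tested, levels correlated at 0.947 between days 0 and 3, 0.953 between days 0 and 7 and 0.935 between days 3 and 7, within the range of 0.897 to 0.985 over all pairs of the 9 arrays. Days 0 and 7 shared slide 1 and day 3 was on slide 2, so that within the line day 3 and slide cannot be told apart.

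Between day 0 and day 3, 1751 genes rose and 1544 fell, which is 11 and 9.69 percent of the genes tested. Between day 3 and day 7, 1880 genes rose and 1883 fell (11.8 and 11.8 percent). Day 7 was nearer to day 0: 1228 genes were higher at day 7 (7.7 percent) and 806 were lower (5.06 percent). These shares of all genes tested are the background for the wild type list counts below, also where they are not repeated. The median difference of all genes was 0.13 from day 0 to day 3, -0.15 from day 3 to day 7 and -0.04 from day 0 to day 7 (log2). The balance of rises and falls in the steps to and from day 3 depends on the scaling. With each array scaled to the probes detected on all 9 arrays, 931 genes rose and 2329 fell by day 3, and 2553 rose and 979 fell from day 3 to day 7. With scaling to the array median these counts were 2624 and 1202, then 1548 and 2837. The median of all genes moved with them, to -0.17 and 0.32 for day 3 against day 0 and to 0.13 and -0.34 for day 7 against day 3. The count for day 7 against day 0 kept its balance under both.

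Falls by day 3 were larger than rises: 138 genes fell at least 8-fold and 56 rose as much, and 18 fell at least 32-fold against 1 that rose as much. From day 3 to day 7 this turned round, with 283 genes rising at least 8-fold and 42 falling as much. When each gene was classed by its 2 steps, 1129 genes peaked at day 3 and 830 dipped at day 3. A further 1014 genes were level to day 3 and then rose, 745 were level and then fell, 705 fell by day 3 and stayed level, and 586 rose by day 3 and stayed level. Only 36 genes rose in both steps and 9 fell in both, and 10884 genes took no 2-fold step. Of the 1129 peaks, 1073 were within 2-fold of their day 0 level at day 7, as were 591 of the 830 dips. Both steps share the day 3 array, so an error of that array alone would also give peaks and dips.

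**Figure D1:**
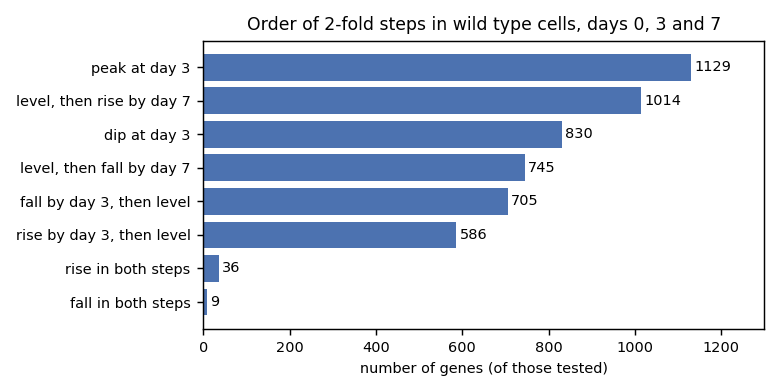
The bars give the number of genes in each order of 2-fold steps over days 0, 3 and 7 in wild type cells (1 array a day), without the 10884 genes that took no step. The longest bars are the 1129 genes that peaked at day 3 and the 1014 that were level to day 3 and then rose.

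The genes of the pluripotent state stayed expressed through day 7. All 12 members of a core pluripotency list and all 18 members of a naive pluripotency list were well above background on every array. Of the core list, Pou5f1 (Oct4) stood at 14.84, 15.17 and 14.45 on days 0, 3 and 7 and Sox2 at 13.07, 12.70 and 12.53 (log2). Neither took a 2-fold step, and nor did Nanog (7.01, 6.67 and 7.58) or 8 other members. The exception was Lin28a, an RNA-binding protein that blocks let-7 maturation, which rose from 12.40 to 13.69 by day 3 and stood at 12.75 at day 7. The core list's median difference was -0.19 from day 0 to day 7. It was 0.27 from day 0 to day 3, a value that changed sign under 2 of 11 alternative settings.

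A few naive and LIF-dependent genes fell, while 14 of 18 naive genes and 8 of 13 LIF and STAT3 genes took no 2-fold step. Klf4, a naive factor downstream of LIF and STAT3, fell from 15.19 to 13.30 by day 3, a 3.69-fold difference, and stood at 13.18 at day 7. Tbx3, a factor that sustains self-renewal, fell from 14.56 to 13.55 and then stood at 13.75. Spp1, a secreted matrix protein, fell from 13.35 to 12.20 and then stood at 12.78. Dppa3, a maternal factor that marks naive and germ cells, ran the other way, with 8.94, 10.42 and 7.98, a peak at day 3. In all, 3 of 18 naive genes fell and 1 rose by day 3 (against 9.69 and 11 percent of all genes), with a list median of -0.38. At day 7, 1 of 18 was lower than at day 0 (against 5.06 percent). Of 13 LIF receptor and STAT3 target genes, 4 fell by day 3 (against 9.69 percent of all genes). At day 7, 4 were lower than at day 0 (against 5.06 percent), and the medians were -0.33 for each step. Zfp36 (8.29, 4.87 and 5.70) and Junb (7.77, 5.48 and 5.39) are in both counts. Both also belong to the immediate early list described below and are counted again there. Socs3, the feedback inhibitor of the LIF and STAT3 pathway, fell in both steps, from 13.50 to 12.30 to 10.98. Bcl3, an IkB family member induced by LIF, was level at 12.21 and 12.42 and then fell to 10.96. Among these genes Socs3 had the most stepwise decline, whereas Klf4 had reached its low level at day 3.

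The knock-in lines gave other values for the same 18 naive genes at day 7. The median difference from day 0 to day 7 was -0.55 in wild type, -2.18 in the PKM1 knock-in line (15 of 18 genes lower) and -0.18 in the PKM2 knock-in line (2 lower and 2 higher). These differences between lines have no test, since each line has 1 array a day.

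The deepest falls of the time course were in genes of the immediate early response, a set of growth factor and stress responsive transcription factors that are transcribed within minutes of a stimulus. Fos stood at 14.94 at day 0, 5.78 at day 3 and 8.08 at day 7, a 569.8-fold fall by day 3. Fosb, its paralog, went from 13.66 to 5.91 and 5.95. Egr1, a zinc finger factor of the same response, went from 15.53 to 8.94 and 8.82. Fosb and Egr1 thus stayed low at day 7, with 209.8-fold and 105-fold differences from day 0, whereas Fos regained part of its level. Egr2 stood at 12.14 at day 0, was not well above background at day 3 and reached 5.06 at day 7, which makes the first difference at least 273-fold. Of the 20 immediate early genes, 15 fell by day 3 (against 9.69 percent of all genes) and 14 were lower at day 7 than at day 0 (against 5.06 percent). The list median was -2.34 by day 3 and -1.78 at day 7. The 1 member that rose by day 3 was Myc, from 8.20 to 10.28.

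Of 17 chemokines and other inflammatory mediators tested, 9 dipped at day 3, 5 fell by day 3 and stayed level, and 3 did neither. Lcn2, the iron-scavenging lipocalin of the acute phase, stood at 12.65, 5.92 and 5.72. Cxcl1, a neutrophil-attracting chemokine, stood at 10.62 at day 0, was not well above background at day 3 and was at 5.62 at day 7. Ccl7, a monocyte-attracting chemokine, stood at 10.47, was not well above background at day 3 and returned to 8.96. Ccl7 was among the largest dips of the course, with a fall of at least 86-fold and a rise of at least 30.3-fold. Cxcl5, another neutrophil chemokine, stood at 10.36, then not well above background, then at 5.50. Il6, the inflammatory cytokine, stood at 8.98 at day 0 and was not well above background on either later day. Of 17 mediators tested, 14 fell by day 3 (against 9.69 percent of all genes). From day 3 to day 7, 10 rose (against 11.8 percent), and 10 remained lower at day 7 than at day 0 (against 5.06 percent). The list median was -4.19 by day 3, or -4.81 when dim arrays were taken at their measured levels.

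A list of 22 fibroblast markers, which would also mark a feeder layer, moved in the same direction at day 3. Dcn, a collagen-binding proteoglycan of fibroblasts, stood at 13.41, 5.80 and 8.03. Mmp3, a stromal matrix protease, stood at 10.72 and 4.60 and was not well above background at day 7. Mgp, a calcification inhibitor made by mesenchymal cells, stood at 11.32, 8.68 and 3.97. All 3 were far lower at day 7 than at day 0, by 41.7-fold for Dcn, at least 112-fold for Mmp3 and 163-fold for Mgp. Acta2, smooth muscle actin, differed from them, with 7.08, 4.33 and 13.46, and had the largest rise of the course from day 3 to day 7 (558-fold). Of 21 fibroblast genes tested, 15 fell by day 3 (against 9.69 percent of all genes) and 0 rose. From day 3 to day 7, 10 rose and 2 fell (each against 11.8 percent). At day 7, 5 were higher and 9 were lower than at day 0 (against 7.7 and 5.06 percent). The summed signal of the list was 31544, 11420 and 33425 scaled units on days 0, 3 and 7. At day 0, 19 of the 21 were well above background, all but Col5a2 and Postn. At day 3, Col5a2, Lum, Postn, Ptx3 and Prrx1 were not, and at day 7 Col6a2, Lum and Mmp3 were not. The part of fibroblast or feeder RNA in the immediate early, inflammatory, interferon, Hox and mesenchyme values was not tested.

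The fall of these 3 groups from day 0 to day 3 also appears in the separate arrays of the knock-in lines, given here side by side. The immediate early median was -2.34 in wild type, -1.76 in the PKM1 knock-in line (13 of 20 lower) and -1.99 in the PKM2 knock-in line (14 of 20 lower). The inflammatory median was -4.19, -3.83 and -2.13, with 14, 13 and 11 of 17 lower. The fibroblast median was -2.61, -2.77 and -1.8, with 15, 16 and 16 of 21 lower. The background for these counts was 9.69, 7.74 and 8.18 percent of genes lower by day 3. In the wild type and PKM1 knock-in lines days 0 and 3 lay on different slides, and the part of slide in the fall was not tested. In the PKM2 knock-in line these days shared slide 1. In that line the day 0 levels were lower, with Fos at 11.44 and Dcn at 9.21, against 14.18 and 13.38 in the PKM1 knock-in line.

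**Figure D2:**
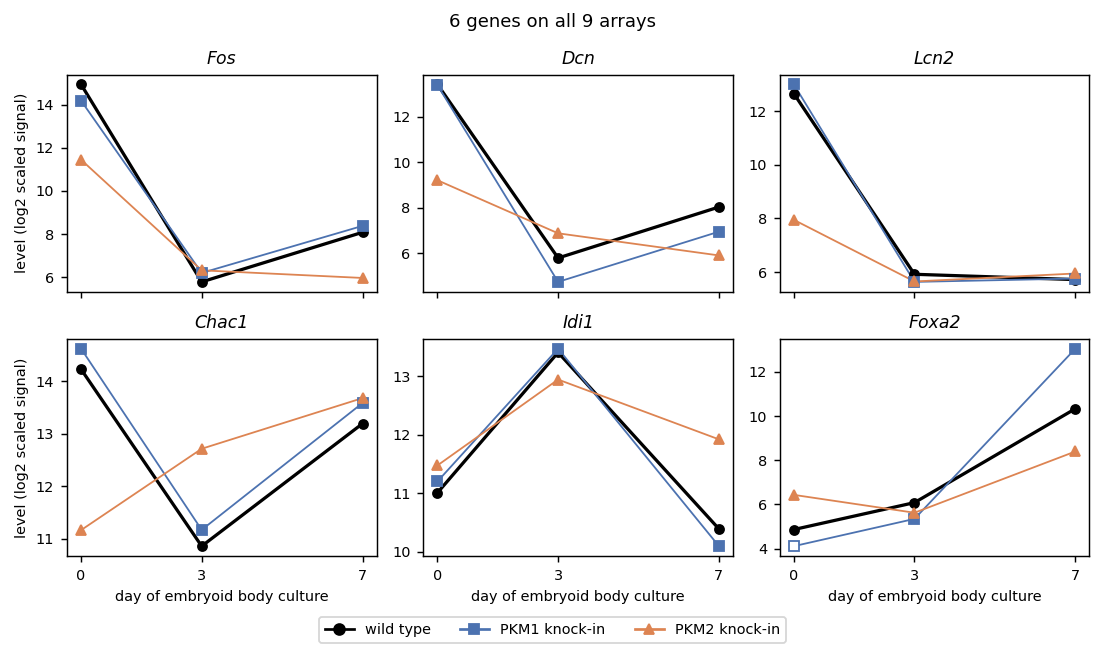
Levels (log2 scaled signal) of 6 genes over days 0, 3 and 7 in wild type (black circles), PKM1 knock-in (blue squares) and PKM2 knock-in (orange triangles) cells, 1 array per point, with open symbols where a probe was not well above background. Wild type Fos drops from 14.94 to 5.78 and Dcn from 13.41 to 5.80 by day 3, Idi1 peaks at 13.41 at day 3, and Foxa2 climbs to 10.33 at day 7.

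Interferon response and antigen processing genes were mixed. Ifi27, an interferon-induced mitochondrial protein, stood at 11.43, 5.48 and 5.96. B2m, the light chain of MHC class I, dipped from 12.94 to 9.85 and returned to 12.67. Usp18, which limits interferon signalling, stood at 8.36, then not well above background, then at 6.90. Cd274 (PD-L1) stood at 4.68, then not well above background, then at 7.63. Of 23 genes, 9 fell by day 3 (against 9.69 percent of all genes) and 7 were lower at day 7 than at day 0 (against 5.06 percent). Of the fibroblast markers, 15 of 21 and 9 of 21 were lower in these comparisons.

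Targets of the integrated stress response, in which phosphorylation of eIF2 raises translation of ATF4 and so transcription of amino acid and redox genes, dipped at day 3. Of 24 genes, 15 fell by day 3 (against 9.69 percent of all genes) and 0 rose. From day 3 to day 7, 10 rose again (against 11.8 percent). Atf3, a stress-induced partner of the AP-1 family that is also an immediate early gene, stood at 12.28, 6.13 and 9.39. Chac1, a glutathione-degrading enzyme, stood at 14.23, 10.86 and 13.20. Vldlr, a lipoprotein receptor, stood at 10.46, 6.41 and 10.56, so that its day 7 level was back at that of day 0. Aldh1l2, a mitochondrial folate enzyme, stood at 8.03, 4.35 and 7.26. The list median was -1.17 by day 3 and 0.52 from day 3 to day 7. It was -2.22 by day 3 in the PKM1 knock-in line and -0.84 in the PKM2 knock-in line. In these lines 20 and 11 of 24 fell, against 7.74 and 8.18 percent of all genes.

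The promoters of some of these genes hold a C/EBP-ATF element, the composite site through which ATF4 and C/EBP factors are known to act, searched as TGATGNAA on both strands in the RefSeq window from 250 bases before to 50 bases after the gene start. Of the 24 members 21 had a window, and 8 of these 21 (38.1 percent) held the letters, beside 4.51 percent of all 27025 genes with a window and 3.10 percent of the tested genes with one. The 8 genes are Atf3, Chac1, Trib3, Slc7a11, Asns, Fgf21, Nupr1 and Vldlr, and Slc7a11 holds the letters 2 times. The sequences below are shown because they carry the letters in genes that fell by day 3; these genes were chosen by their promoters, after their values were seen. They are 5′ to 3′ on the gene's strand, from RefSeq on GRCm38.p6, with the matched letters in capitals, read as TTGCATCA where the match is on the other strand.
Atf3 (chr1:191183406-191183473, minus strand): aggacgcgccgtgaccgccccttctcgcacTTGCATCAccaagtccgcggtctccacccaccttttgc
Chac1 (chr2:119351019-119351086, plus strand): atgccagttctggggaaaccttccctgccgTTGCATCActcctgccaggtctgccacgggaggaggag
Vldlr (chr19:27216790-27216857, plus strand): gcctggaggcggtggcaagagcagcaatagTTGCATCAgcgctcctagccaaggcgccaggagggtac
Nupr1 (chr7:126625543-126625610, minus strand): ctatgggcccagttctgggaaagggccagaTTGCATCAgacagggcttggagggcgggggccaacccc
Slc7a11 (chr3:50443642-50443709, minus strand): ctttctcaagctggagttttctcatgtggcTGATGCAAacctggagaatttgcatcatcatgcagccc
Asns (chr6:7693195-7693262, minus strand): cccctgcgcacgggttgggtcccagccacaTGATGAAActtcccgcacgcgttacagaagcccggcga

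Counted from the gene start, the match begins at base -110 in both Atf3 and Nupr1, at -193 in Chac1, at -200 in Vldlr, at -66 in Slc7a11 and at -23 in Asns. Nupr1, a small stress-induced chromatin protein, fell from 13.31 to 10.74 and returned to within 1.24-fold of its day 0 level. Asns, asparagine synthetase, fell from 16.54 to 15.51 and stood at 15.88 at day 7. Slc7a11, the cystine transporter, stood at 5.05 at day 0 and was not well above background on the later days. Among the 5 of these genes measured on both arrays, the fall by day 3 ranged from 2.03-fold in Asns to 71.1-fold in Atf3. A match is a description of the sequence only, and no binding was measured.

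The group with the most uniform course was cholesterol synthesis, the SREBP2-controlled pathway from acetyl-CoA through mevalonate to sterols. All 24 genes of this list were tested. By day 3, 23 of 24 rose (against 11 percent of all genes) with a median difference of 2.11, and from day 3 to day 7 all 24 fell (against 11.8 percent) with a median of -1.84. The median from day 0 to day 7 was -0.02, so the list ended where it began. Idi1, the isopentenyl diphosphate isomerase, stood at 11.01, 13.41 and 10.39. Lss, which closes the sterol ring, stood at 8.34, 10.94 and 8.27. Insig1, the sterol-sensing retention protein of the SREBP pathway, stood at 6.97, 9.16 and 6.10. Among these 3 genes the largest rise was 6.07-fold, in Lss, and the largest fall was 8.35-fold, in Insig1. Over 11 alternative settings the list median by day 3 lay between 1.8 and 2.30.

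The same rise by day 3 had a median of 1.69 in the PKM1 knock-in line (19 of 24 higher, against 6.95 percent of all its genes) and 1.01 in the PKM2 knock-in line (14 of 24, against 6.85 percent). The later fall was -1.8 in the PKM1 knock-in line (18 of 24 lower, against 16.7 percent) and -0.45 in the PKM2 knock-in line (3 of 24, against 2.8 percent). A sterol element, searched as TCACNCCAC on both strands, lay in the promoter window of 1 of the 16 list members that had one, Hmgcs1, the cytosolic HMG-CoA synthase, beside 1.44 percent of all genes. Hmgcs1 stood at 12.63, 14.70 and 12.40. Its element, in capitals, is shown because Hmgcs1 is the member whose window holds it, on GRCm38.p6, and it begins at base -137 from the gene start. It was chosen after its values were seen.
Hmgcs1 (chr13:119690184-119690252, plus strand): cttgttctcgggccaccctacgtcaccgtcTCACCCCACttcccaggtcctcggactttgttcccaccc

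**Figure D3:**
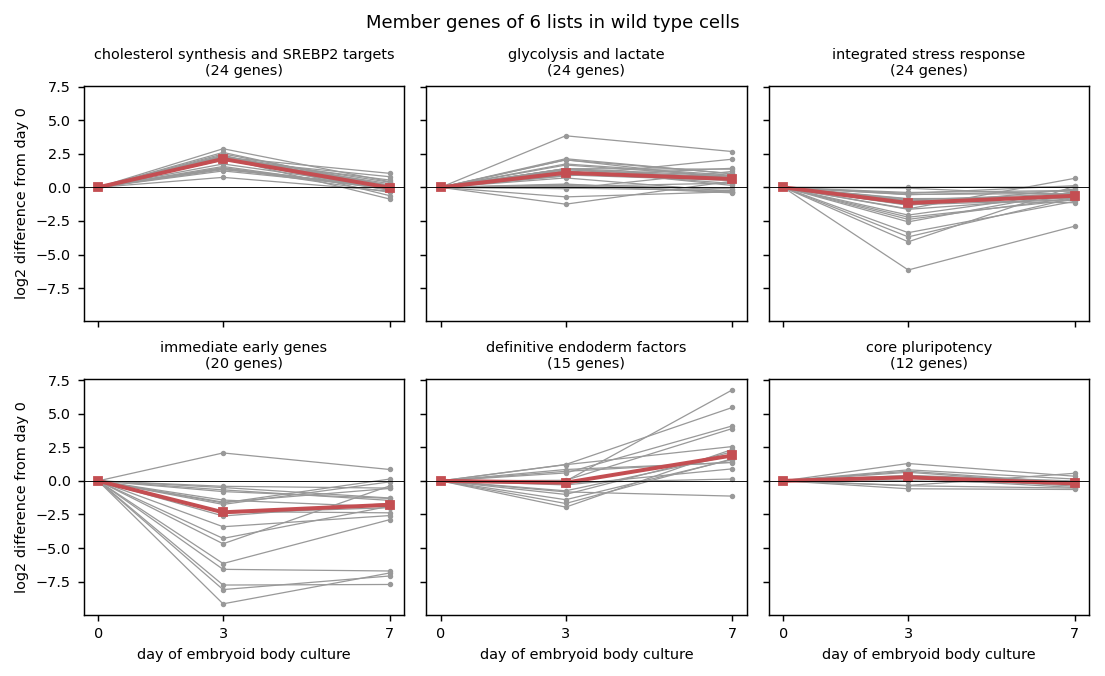
Each grey line is 1 gene and the red line is the list median, as the log2 difference from day 0 in wild type cells at days 0, 3 and 7, for 6 gene lists with the number of tested genes in each title. The 24 cholesterol genes rise and return together (median 2.11 at day 3), the immediate early genes fall to a median of -2.34, and the core pluripotency genes stay near 0.

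Fatty acid synthesis followed the sterol genes in part. Of 18 genes, 9 rose by day 3 (against 11 percent of all genes) and 0 fell. From day 3 to day 7, 8 fell and 1 rose (each against 11.8 percent). Acaca, the acetyl-CoA carboxylase, stood at 10.79, 13.03 and 10.98. The probes of Acaca disagree: another rose likewise, with 5.57, 7.40 and 5.46, and one fell, with 8.23, 6.36 and then not well above background. Scd1, the stearoyl-CoA desaturase, stood at 9.21, 10.76 and 8.34. Fads2, a desaturase of polyunsaturated fatty acids, stood at 4.83, 6.78 and 5.31. Thrsp, a lipogenic regulator, was well above background at day 3 only, at 6.29. The list medians were 1.0 and -0.79.

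Glycolytic genes rose by day 3 and kept part of the rise at day 7. Of 24 genes, 12 rose by day 3 (against 11 percent of all genes) and 1 fell. At day 7, 7 were higher than at day 0 (against 7.7 percent) and 0 were lower. Slc16a3, the lactate exporter MCT4, stood at 9.67, 13.51 and 12.34, a 14.3-fold rise by day 3. Ldha, lactate dehydrogenase A, stood at 15.10, 17.23 and 16.10. Eno1, enolase, stood at 15.30, 17.35 and 15.94. Pfkfb3, which makes the allosteric activator of phosphofructokinase, rose later, with 8.22, 9.08 and 10.31. Slc16a3, Ldha and Eno1 thus peaked at day 3, while Pfkfb3 rose by day 7. The list median was 1.08 by day 3, which lay between 0.78 and 1.27 over the alternative settings, and 0.62 from day 0 to day 7. By day 3 it was 0.74 in the PKM1 knock-in line and 0.22 in the PKM2 knock-in line.

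Pkm itself, read by 1 probe (A_55_P2060107) that does not tell the splice forms apart as used here, stood at 13.66, 16.10 and 14.67 in wild type cells. It rose 5.45-fold by day 3, fell 2.70-fold by day 7 and ended 2.02-fold above day 0. In the PKM1 knock-in line the levels were 13.56, 14.72 and 13.90. In PKM2 knock-in cells they were 13.78, 14.31 and 13.63. Wild type lay between the knock-in lines at day 0 and was the highest on both later days. Pklr, the liver and red cell pyruvate kinase, was not well above background on any of the 9 arrays. Among regulators of Pkm splicing, Ptbp1, which favours the PKM2 exon, stood at 13.03, 14.16 and 12.89. Srsf3, which also favours the PKM2 exon, stood at 13.45, 14.47 and 13.43. The probes of Srsf3 disagree: another rose less than 2-fold, with 13.46, 14.27 and 13.41, and one was lower at day 3, with 11.3, 10.6 and 10.9. Nek2, a mitotic kinase, stood at 10.49, 11.19 and 9.67. Of the 9 genes of this list with Pkm included, 3 rose by day 3 (against 11 percent of all genes). From day 3 to day 7, 4 fell (against 11.8 percent).

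**Figure D4:**
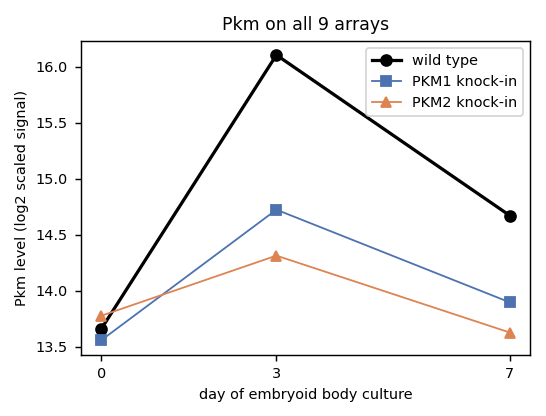
Pkm level (log2 scaled signal, 1 probe) by day in the 3 lines, 1 array per point. The lines start between 13.56 and 13.78 at day 0, and wild type reaches 16.10 at day 3 and 14.67 at day 7.

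Genes of the pentose phosphate pathway, which makes NADPH and ribose, peaked or rose in the same step. Of 11 genes, 7 rose by day 3 (against 11 percent of all genes) and 1 fell, with a median of 1.13. Tkt, transketolase, stood at 13.66, 15.71 and 14.01. G6pdx, the entry enzyme, stood at 11.18, 12.67 and 11.30. Pgls, the lactonase, stood at 9.05, 10.54 and 9.71. Prps1, which makes PRPP for nucleotides, stood at 12.88, 14.01 and 12.47. G6pd2, Pgd and Prps2 also rose, whereas Rpia, Rpe and Taldo1 took no step and Rbks, ribokinase, dipped, with 8.62, 6.19 and 9.26.

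Hypoxia targets outside glycolysis were split. Bnip3, a mitophagy receptor, rose from 9.96 to 13.16 and stood at 12.40 at day 7. Egln3, an oxygen-sensing prolyl hydroxylase, rose from 7.00 to 9.61 and stood at 8.81. Lox, the matrix-crosslinking oxidase, went the other way, from 5.49 to not well above background and then to 6.19. Nrn1, a neurite growth factor, stood at 6.31 at day 0 and was not well above background later. By day 3, 4 of 23 rose and 4 fell, against 11 and 9.69 percent of all genes. The core of the hypoxia element, ACGTG, lay in the promoter window of 14 of 23 glycolysis members (60.9 percent) and 14 of 17 hypoxia members (82.4 percent) that had one, beside 21.8 percent of all genes and 27.0 percent of the tested genes with a window.

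Respiratory chain genes took few 2-fold steps, with none in 34 of 37, against 68.3 percent of all genes. In pyruvate entry and the tricarboxylic acid cycle 19 of 27 took none, which is near that share. Of 37 respiratory chain and ATP synthase genes, 3 rose by day 3 (Ndufb10, Uqcrfs1 and Cox7a2), against 11 percent of all genes. From day 3 to day 7, 1 fell, against 11.8 percent. Of these 27 genes, 4 rose and 1 fell by day 3 (against 11 and 9.69 percent of all genes). From day 3 to day 7, 2 rose and 4 fell (each against 11.8 percent). The medians of these 2 lists from day 3 to day 7 were -0.51 and -0.55, beside -0.15 for all genes. In this step 35 of 37 and 24 of 27 genes lay below 0. Idh3a, a subunit of the NAD-linked isocitrate dehydrogenase, stood at 12, 13.16 and 11.91. Pck2, the mitochondrial PEP carboxykinase and a stress response target, dipped, with 7.76, 5.50 and 7.18. Of 20 serine and folate genes, 4 rose and 3 fell by day 3 (against 11 and 9.69 percent of all genes). Ahcy, S-adenosylhomocysteine hydrolase, was among those that rose, with 8.59, 10.16 and 8.53.

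Growth and division genes fell from day 3 to day 7. Of 38 replication and cell cycle genes, 7 rose and 3 fell by day 3 (against 11 and 9.69 percent of all genes). From day 3 to day 7, 19 fell and 5 rose (each against 11.8 percent). Ccne1, cyclin E1, stood at 12.59, 15.04 and 12.19. The inhibitors of cyclin-dependent kinases moved oppositely. Cdkn1c (p57) stood at 9.06, 10.80 and 12.51 and rose in both steps. Cdkn2a stood at 10.52, 9.41 and 12.56, and Cdkn2b at 8.83, 7.74 and 11.35. Of 27 Myc target and ribosome biogenesis genes, 11 rose by day 3 (against 11 percent of all genes) and 0 fell. From day 3 to day 7, 12 fell (against 11.8 percent). Nolc1, a nucleolar chaperone, stood at 12.08, 14.19 and 12.35. Srm, spermidine synthase, stood at 13.02, 14.78 and 13.38. Nhp2, a snoRNP component, stood at 14.81, 16.37 and 15.07. The list medians from day 3 to day 7 were -1.01 for the cell cycle and -0.97 for ribosome biogenesis, and 0 of 38 and 0 of 27 were lower at day 7 than at day 0.

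Unfolded protein response genes rose in 5 of 14 cases by day 3, against 11 percent of all genes. Xbp1, its transcription factor, stood at 12.18, 13.85 and 13.06. Manf, a secreted endoplasmic reticulum protein, stood at 11.02, 12.58 and 11.58. Herpud1, an ER degradation factor, dipped instead, with 12.16, 9.60 and 11.31. Of 16 heat shock and oxidative stress genes, 2 rose by day 3 (Gsta4 and Nqo1), against 11 percent of all genes. Hspa1a alone was lower at day 7 than at day 0, against 5.06 percent. Both counts are near the share of all genes. Of 15 p53 targets, 3 fell by day 3 and 1 rose, against 9.69 and 11 percent of all genes. Cdkn1a (p21) stood at 11.39, 10.06 and 12.09, and Sesn1 at 9.62, 11.24 and 9.90.

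Formative epiblast genes, which mark the primed state, rose in part by day 3 and in part later. Fgf5, the classic primed epiblast growth factor, rose in both steps, with 5.33, 6.66 and 10.83, a 45.1-fold difference at day 7. Lef1, a nuclear partner of beta-catenin, rose from 4.28 to 7.51 by day 3 and stood at 7.16. Bcl11a, a zinc finger repressor, was not well above background at day 0 and stood at 7.59 and 6.61. Fgf15, a secreted FGF of the early embryo, stood at 6.84, 9.69 and 8.5. Most of the rise of Fgf5 came after day 3, whereas Lef1 and Fgf15 had their highest level at day 3. The probes of Bcl11a disagree, since another one was not well above background at day 0 and stood at 5.86 and 6.86, highest at day 7. Of 14 formative genes, 5 rose by day 3 (against 11 percent of all genes) and 5 rose from day 3 to day 7 (against 11.8 percent). At day 7, 7 were higher than at day 0 (against 7.7 percent) and 0 were lower. The list median by day 3 was 0.44, against 1.94 in the PKM1 and 1.82 in the PKM2 knock-in line. Dnmt3b, a de novo DNA methyltransferase, peaked with 13.34, 14.97 and 13.78. Uhrf1, the maintenance cofactor, peaked with 13.14, 14.44 and 12.88. Dnmt3a was level at 8.49 and 8.62 and rose to 9.68. The other 7 of 10 DNA methylation enzymes took no 2-fold step.

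In the Nodal pathway, the feedback inhibitors rose first. Lefty1 stood at 9.54, 13.66 and 12.41 and Lefty2 at 11.48, 13.57 and 12.33, so that both peaked at day 3. Cer1, an inhibitor of Nodal, BMP and Wnt made by anterior endoderm, was not well above background on days 0 and 3 and stood at 10.83 at day 7, at least 109-fold above day 0. On the knock-in day 7 arrays Cer1 stood at 7.70 in the PKM1 line and was not well above background in the PKM2 line. Of 15 Nodal genes, 4 rose by day 3 (against 11 percent of all genes). From day 3 to day 7, 3 rose and 2 fell (each against 11.8 percent). At day 7, 6 were higher than at day 0 (against 7.7 percent).

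Some Wnt pathway members rose later. Sfrp5, a secreted Wnt antagonist, stood at 5.55, 7.86 and 11.20. Dkk1, another antagonist, and Lgr5, the R-spondin receptor, were not well above background on days 0 and 3 and stood at 8.23 and 7.30 at day 7. Rspo3, a Wnt-enhancing ligand, dipped from 7.11 to not well above background and returned to 7.90. Of 16 Wnt genes, 3 rose and 4 fell by day 3 (against 11 and 9.69 percent of all genes). From day 3 to day 7, 9 rose (against 11.8 percent) and 0 fell. The list median of this later step was 1.05, and 0.02 when only genes above background on all 3 wild type arrays were kept. In the FGF list of 17, 6 rose and 2 fell from day 3 to day 7 (each against 11.8 percent of all genes). Fgf8, a streak and midbrain ligand, stood at 6.01, 7.31 and 8.86. Another probe of Fgf8 was not well above background at day 0 and stood at 6.04 and 6.78. A further probe of it was not well above background on any wild type array. Fgf3 was well above background at day 3 only, at 5.96, and Fgf10 dipped, with 7.15, 5.22 and 7.24. In the BMP list of 16, 4 fell by day 3 (against 9.69 percent of all genes) and 0 rose. From day 3 to day 7, 3 rose (against 11.8 percent). Bmp2 stood at 7.13, then not well above background, then at 9.26. Grem1, a BMP antagonist, stood at 10.27, 6.20 and 6.48. Smad6, an inhibitory Smad, stood at 6.69, 7.64 and 7.92.

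Endoderm genes rose between day 3 and day 7, most of them from levels already above background. Of 15 endoderm transcription factors and associated genes tested, 11 rose in this step (against 11.8 percent of all genes) and 0 fell, with a median of 2.99. Foxa2, a pioneer factor of endoderm and node, stood at 4.87, 6.09 and 10.33. Hnf4a, a nuclear receptor of visceral endoderm and liver, dipped and rose, with 6.93, 4.97 and 9.27. Spink1, a trypsin inhibitor, stood at 10.85, 11.44 and 14.94. Of these 3, Foxa2 alone rose in the first step, with a 2.32-fold rise by day 3. Another probe of Foxa2 was not well above background on days 0 and 3 and stood at 8.25 at day 7. By day 7, 12 of the 15 endoderm genes were higher than at day 0 and 1 was lower (against 7.7 and 5.06 percent of all genes). Prox1 and Pdx1 were among the members not tested, as they were not well above background on any wild type array.

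Of 17 tested secreted proteins of visceral endoderm, the layer that nourishes the early embryo, 10 were well above background at day 0, 10 at day 3 and 17 at day 7. Afp, Ttr, Apoa1, Fgb, Serpina1a, Ambp and Cer1 were tested only because they were detected at day 7, so their detection on that day was fixed. Such members, Ttr and Afp among them, are also in the count of 10 rises below. Ttr, the thyroid hormone carrier, and Afp, alpha-fetoprotein, were not well above background on days 0 and 3 and stood at 9.47 and 9.10 at day 7, at least 42.2-fold and 32.8-fold above day 0. Rbp4, the retinol carrier, stood at 7.70, 7.88 and 12.35. Of 17 tested, 10 rose from day 3 to day 7 (against 11.8 percent of all genes) and 0 fell. The 5 others (Alb, Apoa4, Apoc2, Gc and H19) were not tested. The median rise in this step was 1.40 in wild type, 7.73 in the PKM1 knock-in line (17 of 17 higher, against 15.1 percent of all its genes) and 0.45 in the PKM2 knock-in line (5 of 17 higher, against 4.74 percent). The wild type value was 0.38 under normexp background correction and 0.54 when only genes above background on all 3 wild type arrays were kept. At day 7 Afp stood at 17.70 in the PKM1 and 6.30 in the PKM2 knock-in line, so that the wild type level lay between them.

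Genes of the absorptive surface of visceral endoderm also moved in this step. Clic6, a chloride channel protein, stood at 6.74, 5.15 and 11.52. Ctsh, a lysosomal protease, stood at 9.05, 7.45 and 12.84. Dab2, an endocytic adaptor, stood at 6.13, then not well above background, then at 9.80. Lrp2 (megalin), an endocytic receptor, stood at 7.82, 8.80 and 11.04. Of 15 genes, 6 rose from day 3 to day 7 and 2 fell (each against 11.8 percent of all genes). In the list of parietal endoderm and basement membrane, 11 of 19 rose (against 11.8 percent) and 0 fell in this step. By day 3, 7 had fallen (against 9.69 percent). Col4a1 and Col4a2, the chains of type IV collagen, stood at 8.51, 7.45 and 12.05 and at 8.33, 7.12 and 11.88. Plat, the tissue plasminogen activator, stood at 6.08, then not well above background, then at 8.94. Both collagen chains moved together in each step.

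Keratins of simple epithelium rose strongly. Krt18 stood at 12.22, 11.49 and 16.01, Krt8 at 9.67, 10.14 and 13.23, and Krt19 at 7.59, 8.10 and 11.44. Gata3, a trophoblast and epithelial factor, stood at 6.82, 6.43 and 10.48. Of 14 genes of the trophoblast and simple epithelium list, 8 rose and 1 fell from day 3 to day 7. The share of all genes was 11.8 percent each way. Elf5, Plac1, Prl2c2 and Tpbpa, which are markers of trophoblast, were not well above background on any wild type array. Of 15 epithelial junction genes, 3 rose and 1 fell from day 3 to day 7 (each against 11.8 percent). Esrp1, an epithelial splicing factor, peaked with 9.11, 10.59 and 9.18, and Cldn6, a tight junction protein, stood at 8.45, 8.82 and 9.85.

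Mesenchyme and CCN genes had the highest list median from day 3 to day 7, 3.17. Of 16, 12 rose (against 11.8 percent of all genes) and 0 fell. By day 3, 9 of the 16 had fallen (against 9.69 percent of all genes). Thbs1, a matricellular protein, stood at 8.82, then not well above background, then at 12.04. Ccn1, a YAP and SRF responsive matrix protein, stood at 12.13, 7.44 and 11.75. Cdh2 (N-cadherin) stood at 8.90, 8.06 and 12.14, and Zeb2, a repressor of E-cadherin, at 5.17, then not well above background, then at 8.10. Cdh2 and Zeb2 ended well above day 0, whereas Ccn1 only regained its level. From day 3 to day 7, 10 of 21 fibroblast markers rose.

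Mesoderm and cardiac genes rose less uniformly. T (brachyury), the streak and mesoderm factor, stood at 5.29, then not well above background, then at 7.47. Foxc1, a paraxial mesoderm factor, stood at 7.03, not well above background, and 7.17, and Msx2, a BMP target, at 7.98 and 6.84, with a level at day 7 that was 4.05-fold above day 0. Cdx2 stood at 5.33, not well above background, and 7.01. Of 18 tested streak and mesoderm genes, 8 rose and 3 fell from day 3 to day 7 (each against 11.8 percent of all genes). The difference from day 0 to day 7 had a median of 0.00. Mixl1, Mesp1, Msgn1, Foxf1 and Cdx4 were not well above background on any wild type array. In the cardiac list, 8 of 20 rose and 2 fell from day 3 to day 7 (each against 11.8 percent). Gata4 and Gata6, also endoderm factors, stood at 7.83, 6.15 and 9.47 and at 6.03, 5.02 and 8.19. Myl3, a myosin light chain of slow and cardiac muscle, stood at 5.65, 5.06 and 9.69. Nppb, the natriuretic peptide B, dipped, with 8.70, 5.71 and 7.66. In the blood and endothelium list, 3 of 17 rose and 7 fell in this step (each against 11.8 percent). Flt1, a VEGF receptor, stood at 6.46, 4.80 and 10.52. Etv2, the hemangiogenic master factor, peaked at day 3, with 7.61, 9.57 and 6.52. Sox17, shared with endoderm, stood at 5.06, 5.10 and 8.95. Another probe of Sox17 stood at 5.41, then not well above background, then at 9.46.

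Ectoderm genes changed in smaller numbers. Of 20 neural genes, 7 rose and 1 fell from day 3 to day 7 (each against 11.8 percent of all genes). Nes (nestin), an intermediate filament of progenitors, stood at 8.47, 8.72 and 10.92. Pax3, a dorsal neural and neural crest factor, stood at 5.66, 4.88 and 8.44. Hes3 was not well above background at day 0 and stood at 6.45 and 5.83. Neurog1, Neurog2, Dcx, En1 and Otx1 were not well above background on any wild type array. Of 14 surface ectoderm and neural crest genes, 4 rose (against 11.8 percent) and 0 fell in this step, led by Snai2 with 7.46, 6.02 and 9.19.

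Hox genes were detected at day 0 and day 7 more than at day 3. Of 21 tested, 15 were well above background at day 0, 5 at day 3 and 18 at day 7. Some were tested only through 1 day, so their detection on that day was fixed. These are Hoxc5, Hoxc9, Hoxc10, Hoxd9 and Hoxd10 for day 7, Hoxa2 and Hoxb2 for day 0 and Hoxb5 for day 3. Hoxb9 stood at 8.03, then not well above background, then at 9.33. Hoxb8 stood at 7.56, not well above background, and 7.83, and Hoxc6 at 6.01, not well above background, and 7.90. By day 3, 10 fell (against 9.69 percent of all genes), and 10 rose from day 3 to day 7 (against 11.8 percent). The median by day 3 was -0.96 with dim arrays at their bound and -1.94 at their measured levels. These genes moved in the same steps as the fibroblast markers, as given above.

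Imprinted genes rose in 11 of 19 cases from day 3 to day 7 (against 11.8 percent of all genes), with a median of 1.33. Igf2, the fetal growth factor, stood at 4.44, then not well above background, then at 9.34. Sgce stood at 9.13, 6.15 and 9.19, and Phlda2, a placental growth restrictor, at 8.73, 9.98 and 6.93. The 2-cell-like genes Zscan4c and Zscan4f, markers of a rare totipotent-like state, peaked at day 3, with 7.65, 9.84 and 7.10 and with 8, 10.04 and 7.43. Tmem92 was well above background at day 3 only, at 6.25. So were Usp17lc, Tcstv1 and Tcstv3, which are among the other 5 of 8 tested that took no step. Tmem92 and these genes were tested only because they were detected at day 3, so their detection on that day was fixed. Zscan4c was not well above background on the day 0 and day 3 arrays of either knock-in line. Of 15 germline genes, 6 rose and 1 fell by day 3 (against 11 and 9.69 percent of all genes). From day 3 to day 7, 8 fell (against 11.8 percent). Rhox5, an X-linked homeobox gene, stood at 11.51, 14.29 and 9.46. Stra8, the retinoic acid induced gatekeeper of meiosis, stood at 5.31, 8.45 and 7.84. The labels do not say whether the 3 lines share an origin, and Y-linked genes differed between them. In wild type Eif2s3y stood at 6.36, 5.76 and 4.36, and Ddx3y stood at 5.39 at day 0 and was not well above background later. Eif2s3y stood at 8.13, 8.33 and 9.13 in PKM1 knock-in cells, and at 11.75, 7.67 and then not well above background in PKM2 knock-in cells. The part of such differences between cultures in the comparisons of lines was not tested. Xist was not well above background on any wild type array.

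**Figure D5:**
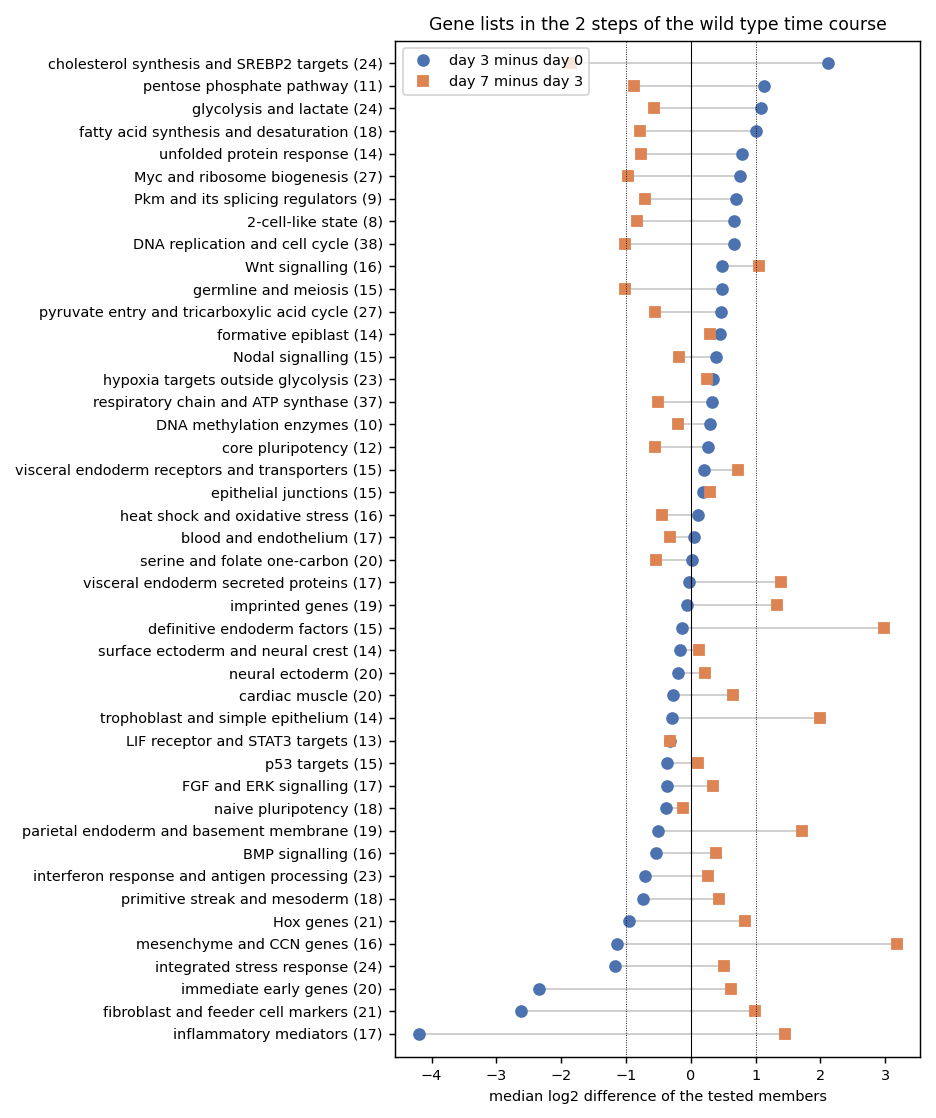
Median log2 difference of the tested members of each gene list (their number in brackets) in wild type cells, for day 3 minus day 0 (blue circles) and day 7 minus day 3 (orange squares), with dotted lines at 1 and -1. Cholesterol synthesis lies at 2.11 and -1.84 and mesenchyme and CCN genes at -1.14 and 3.17; the 2 steps share the day 3 array, so each list's marks are not independent.

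Outside the lists, the largest rises measured on both arrays by day 3 were a 56.1-fold rise of Myo1f, an unconventional myosin, with 5.73, 11.54 and 9.16, and a 26.6-fold rise of Wnk4, a kinase that controls ion transport, with 4.52, 9.26 and 5.05. Reg2 stood at 4.43, 8.71 and 6.98 and Actn3, a muscle actinin, at 6.03, 10.28 and 7.79. Myo1f also rose by day 3 in both knock-in lines, from 5.97 to 10.28 and from 8.25 to 9.34. Wnk4 stood at 5.30 and not well above background on the knock-in day 3 arrays. From day 3 to day 7 the largest measured rises outside the lists were in Wls, the Wnt ligand transporter (8.38, 5.07 and 11.46), and Cyp26a1, which degrades retinoic acid (5.04, 4.76 and 10.90). Bounds in this step were higher still for Prss23 (7.22, not well above background and 12.24) and Prss12 (6.26, not well above background and 12.12), both serine proteases. Prss12 moved likewise on the PKM1 knock-in arrays, where it was not well above background at day 3 and stood at 13.44 at day 7. Amot, a Hippo pathway scaffold, was 66.8-fold higher at day 7 than at day 0, with 7.83, 8.92 and 13.89.

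Of the genes tested, 13779 were well above background on all 3 days. A further 382 were so at day 0 only, 381 at day 3 only, 475 at day 7 only, 540 at days 0 and 7 but not day 3, 182 at days 0 and 3, and 199 at days 3 and 7. Genes seen on 1 wild type day were mostly dim, with medians of 4.80, 4.94 and 5.02 for days 0, 3 and 7. A knock-in array of the same day also showed 122 of the 382 day 0 genes (31.9 percent), 123 of the 381 day 3 genes (32.3 percent) and 275 of the 475 day 7 genes (57.9 percent). No knock-in array of any day showed 186 of the 381 day 3 genes. Among these were Col13a1, a transmembrane collagen (8.73), Themis, a T cell signalling protein (8.29), Pth2r, a peptide hormone receptor (8.08), Gbgt1, a glycosyltransferase (7.73), and Tsga10, a sperm tail protein (7.59). Each of these 5, by the probe that stands for the gene, was well above background on the wild type day 3 array and on none of the other 8. For Themis and Tsga10 this rests on 1 probe, since another probe of each was not well above background on any wild type array.

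Where wild type and knock-in lines took the same step on separate arrays, the shares in common were as follows. Of the 1751 genes that rose by day 3 in wild type, 36.2 percent rose in the PKM1 and 21.6 percent in the PKM2 knock-in line, where 6.95 and 6.85 percent of all genes rose. Of the 1544 that fell, 47.9 and 38.4 percent fell, against 7.74 and 8.18 percent of all genes. From day 3 to day 7, 62.2 percent of the wild type rises were rises in the PKM1 knock-in line, where 15.1 percent of all genes rose, and 53.3 percent of the falls were falls, against 16.7 percent. In the PKM2 knock-in line 17.3 and 8.34 percent were in common, against 4.74 and 2.8 percent. Of the 1107 genes that rose and 1234 that fell by day 3 in the PKM1 knock-in line, 634 and 739 are the genes in common with wild type, and of the 1091 and 1304 in the PKM2 knock-in line 378 and 593. The order of the lines was the same for these 4 shares, PKM1 above PKM2. From day 3 to day 7 the shares of all genes had this order too, with 15.1 against 4.74 percent rising and 16.7 against 2.8 percent falling. By day 3 the shares of all genes were near each other, with 6.95 against 6.85 percent rising and 7.74 against 8.18 percent falling.

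Compared on the same day, PKM1 knock-in cells differed from wild type at least 2-fold in 1323 genes at day 0 (8.3 percent), 1379 at day 3 (8.65 percent) and 2833 at day 7 (17.8 percent). PKM2 knock-in cells differed in 1876 genes at day 0 (11.8 percent), 1835 at day 3 (11.5 percent) and 2905 at day 7 (18.2 percent). Both counts were highest at day 7. The 3295 genes past 2-fold within wild type by day 3 compare with 1323 and 1876 between undifferentiated lines, which differ in genotype and, for PKM1, in slide. Differences of 2-fold were thus also found between undifferentiated lines, and for a single gene a change with time and a difference between arrays cannot be told apart here.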

How the data were processed

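Total RNA of the 3 wild type samples was hybridised to single-colour Agilent mouse arrays. Per the labels' protocols, RNA was column purified and labelled with Cy3. Intensities come from Agilent Feature Extraction 10.10, per the submitters' processing notes; per the file headers, the intensity used is the background-subtracted processed signal. The deposited value table holds the same intensities rounded (largest difference 0.497 percent; medians 46.7, 31.2 and 48.6 on days 0, 3 and 7) and served as an alternative.

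Control and outlier-flagged spots were left out, and each array was divided by its 75th percentile and multiplied by the geometric mean of this percentile over the 9 arrays. Values were then floored at 5, put on the log2 scale and averaged over the spots of a probe. Of 55681 probes, 27235 received 1 symbol through RefSeq accessions of the supplied table and 28446 received none. This gave 20660 named genes, of which 15938 had a probe well above background on at least 1 wild type array and were tested, each by its probe of highest mean level. Of the tested genes 4937 had several probes. The other probes of genes past 2-fold moved the same way in 88.2, 89.4 and 90.1 percent of cases for day 3 against day 0, day 7 against day 3 and day 7 against day 0, and 15, 18 and 5 moved at least 2-fold the other way. List members that pass only through the day on which they are high had to differ, so list counts are descriptions.

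The line, the gene lists and the rule for named genes were chosen with earlier results of these data known. Named are Pkm and Pklr, the 8 largest measured differences and 5 largest bounds per comparison and direction, the 8 largest peaks and dips, and up to 4 members of a list by range over days, with all members open for lists of at most 12 and without provisional symbols; not all are described. Promoter windows are RefSeq's on GRCm38.p6. In all, 13 alternatives were run, with limma 3.58.1 for normexp, and the calling code was tested on simulated data. The labels do not say whether samples came from separate cultures. Python 3.11.15, numpy 2.4.6 and R 4.3.3 were used. Some members of the lists are counted but not reported here by name.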

Additional observations from a re-analysis of the deposited data

Results flagged for a closer look

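Between days 0 and 7 the median of 2 gene lists lay on opposite sides in the wild type and PKM2 knock-in lines, and these differences were not tested, as each line has 1 array a day. The trophoblast and simple epithelium list had a median of 1.54 in wild type, whereas the PKM2 knock-in line gave -1.30. The mesenchyme and CCN list had a median of 1.0 in wild type and -1.07 in the PKM2 knock-in line. For wild type it was 0.17 when only genes above background on all 3 wild type arrays were kept. Days 0 and 7 lay on the same slide for wild type and on different slides for the PKM2 knock-in.

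The 28446 probes without a gene symbol were left out above, and they carry signal. On days 0, 3 and 7, 50.3, 48.3 and 50.1 percent of them were well above background, beside 1.62, 0.65 and 1.62 percent of the negative control spots on the same arrays. Of the 16328 such probes above background on at least 1 wild type day, 1323 rose and 1881 fell by day 3, and 1313 rose and 1277 fell from day 3 to day 7.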

How the results depend on the processing

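No paired analysis was possible because each line and day has 1 array and the labels give no replicate numbers. With 1 array a day the day 3 array decides both steps, and neither it nor its slide can be checked within the line. The main counts were 3295 genes past 2-fold by day 3, 3763 from day 3 to day 7, 2034 from day 0 to day 7, 5054 with a step, 12151 summed over the 6 same-day comparisons of lines, and 28 list medians of at least 1 in size among 135. Normexp with an offset of 50, which draws dim signals together, gave 1925, 2197, 1121, 3039, 6352 and 15. A 1.5-fold threshold gave 6875, 7379, 4159, 9422 and 27786, and a 4-fold threshold 718, 900, 631, 1302 and 2772. Asking for detection on all 3 wild type arrays gave 1335 from day 0 to day 7. All other alternatives kept these counts within 1.5 times. The orders of change were less stable: peaks at day 3 ranged from 555 to 1813 and dips from 350 to 1317 over the scaling, background, filter, floor and probe alternatives. No list median of at least 1 in size and no named gene past 2-fold changed sign under any alternative run; under every alternative other than the changed thresholds, 107 of 135 list medians and 496 of 618 named differences also kept their side of the 2-fold line. Of calls lost among named genes, 60 were under normexp and 33 under quantile normalization. For the Wnt list the median rise of 1.05 from day 3 to day 7 was 0.02 with the filter on all 3 arrays. For the visceral endoderm secreted proteins the rise of 1.40 was 0.38 under normexp. The mesenchyme median of 1.0 from day 0 to day 7 was 0.17 with that filter. Dim probes limit the rest: a gene not well above background has a bound only.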

Other observations

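Further promoter searches gave these shares, which are descriptions only. The letters GTTAAT lay in the windows of 5 of 14 visceral endoderm secreted proteins (35.7 percent), beside 8.24 percent of all genes with a window and 5.99 percent of the tested ones. The CArG box, the binding letters of SRF, lay in 3 of 15 immediate early genes (20 percent), beside 1.81 and 1.77 percent, while the AP-1 letters TGANTCA lay in 0 of 15, beside 8.97 and 6.84 percent. The E-box CACGTG, which contains the hypoxia letters ACGTG, lay in 3 of 21 Myc target and ribosome genes (14.3 percent), beside 8.09 percent of all genes and 10.8 percent of the tested ones.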
